A study of Canis lupus familiaris with 16 samples.

Results

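The data described here set canine fibrosarcomas (FS) against perivascular wall tumors (PWT), which are among the 3 soft tissue sarcoma types of the series. RNA was sequenced from archived formalin-fixed, paraffin-embedded tumors of dogs, and reads were counted per gene. By the molecular identity given for each tumor, 10 of the 16 tumors entered the comparison, and the 6 peripheral nerve sheath tumors (PNST) were left out of the fit. The FS group held 4 tumors, S1-02 (shoulder), S1-11 (stifle), S1-12 (metacarpus) and S2-06 (hip), from dogs aged 9 to 13 years. Their grades, in this order, were 1/2, 2, 2 and 3. The PWT group held 6 tumors, S1-07 (thoracic wall), S2-03 (head), S2-04 (antebrachium), S2-08 (ventral thorax), S2-09 (lateral thorax) and S2-11 (carpus), from dogs aged 2 to 14 years. Their grades, in this order, were 2, 1, 1, 1, 1 and 3, so that grade went in part with type. Each tumor came from a different dog, breeds and sites varied, no treatment distinguished the groups, and no normal tissue was compared here. The p-values therefore measure the spread between tumors of different dogs.

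Fibrosarcomas are malignant growths of fibroblast-like cells that lay down streams of collagen. Perivascular wall tumors grow around vessels in whorls and are held to derive from pericytes, smooth muscle cells or other cells of the vessel wall outside the endothelium. The types resemble each other under the microscope, and *RGS5*, *PDGFRB*, *NOTCH3* and *CSPG4* are genes commonly used to recognize mural cells, whereas no single gene defines fibroblasts.

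The group labels had limits that bear on every value below. Tumor S2-08 was read as an FS by histology and was moved to PWT by the authors on the expression of these same samples, so its place in the group is not independent of the data. The sample sheet records doubt about the type of S2-06 and S2-11. The name prefix also followed the type, since 3 of 4 FS but 1 of 6 PWT carried the prefix S1, for which 3 sequencing runs per tumor were summed, while S2 tumors had 1 run. Gene counts per tumor ranged from 507728 to 2781899 in FS and from 726025 to 2234165 in PWT. Summed skeletal muscle transcripts reached 12613 normalised read counts (CPM, scaled to the library size of each tumor after TMM) in S1-11 and lay between 73.5 and 215 CPM in the other FS and between 77.8 and 1525 CPM in PWT. Summed epidermal transcripts were 2147 CPM in S1-02, 1429 CPM in S1-12 and 1865 CPM in S2-03, and at most 183 CPM in any other tumor. Leading results are therefore given also without S1-11, without S2-08 and with the prefix as a term in the model.

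FS and PWT differed across a wide range of genes. Of 13255 genes tested with edgeR's quasi-likelihood test, 1112 (8.39%) were differentially expressed genes (DEGs), defined by a Benjamini-Hochberg adjusted p under 0.05 and a log2 fold change above 1 in size. Expression was higher in FS for 587 DEGs (4.43% of the genes tested) and higher in PWT for 525 (3.96%). The median size of the log2 difference was 2.10 among DEGs higher in FS and 1.96 among those higher in PWT, and the median over all genes tested was 0.03. For 752 of the DEGs every tumor of one type lay above every tumor of the other, of which 336 were higher in FS and 416 in PWT. Among all genes tested such separation was seen for 9.18%, namely 4.14% higher in FS and 5.04% higher in PWT. These counts by direction hold for genes that passed the filter on low counts, which required 4 tumors to reach its minimum. A gene expressed only in FS had to reach it in all 4 FS, and one expressed only in PWT in 4 of 6 tumors. Without the filter, edgeR placed 64.3% of the genes called higher in FS, against 52.8% with it.

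The number of DEGs depended on single tumors and on the prefix. It was 522 without S1-11 (4.09% of the genes then tested, 2.16% higher in FS and 1.94% higher in PWT), 663 without S2-08 (5.14%, 2.53% higher in FS and 2.61% higher in PWT), 620 without S2-11 and 696 without S2-04. The prefix as a term left 297 DEGs (2.24%, 1.15% higher in FS and 1.09% higher in PWT), of which 260 were among the 1112, and all 1112 kept their direction. Without S1-11 the filter on low counts left 1035 of the 1112 to be tested, and 1034 of these kept their direction. Within the S2 tumors alone, where the single FS is S2-06, 87 genes were called, and within the S1 tumors alone edgeR called 0, with 542 genes at an unadjusted p under 0.05. In both fits 1 type has a single tumor, whose spread is taken to be that of the other type. Leaving out both S1-11 and S2-08, a choice made after the data were seen, left 272 DEGs, of which 261 were among the 1112.

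Under the histological labels, with S2-08 counted as an FS and S1-10 as a PWT, edgeR called 0 of 13749 genes tested. Of these, 1990 had an unadjusted edgeR p under 0.05.

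**Figure D1:**
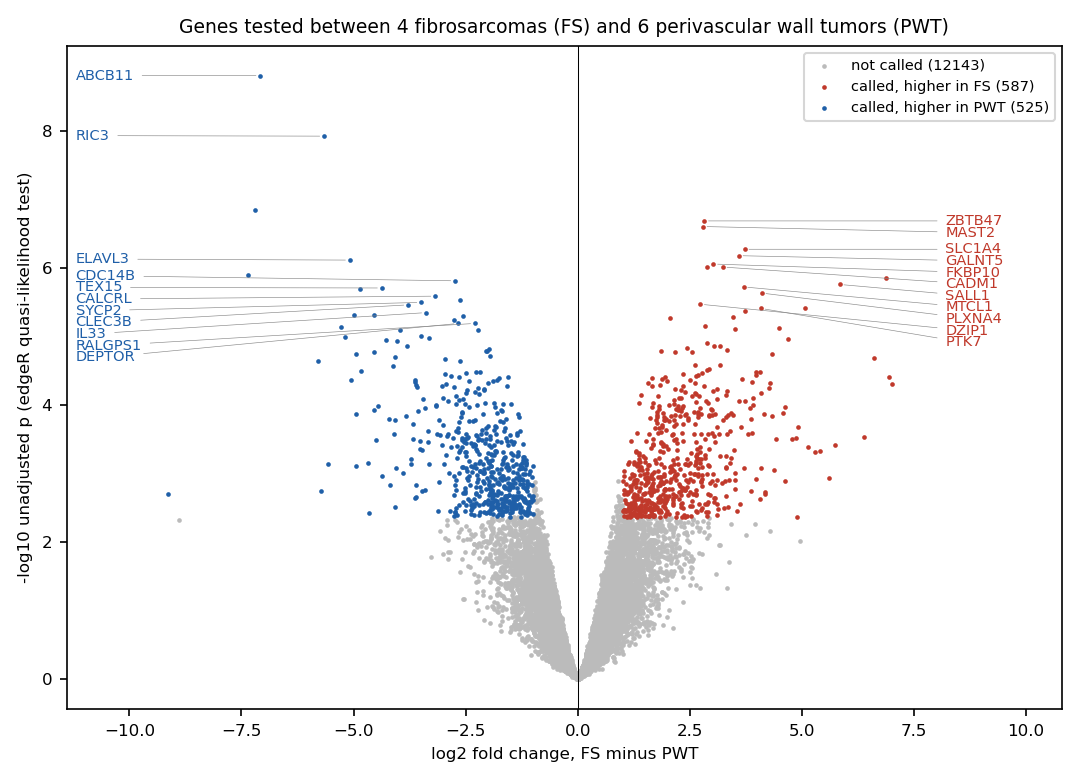
Log2 difference FS minus PWT of each of the 13255 genes tested (horizontal axis) against the negative log10 of its unadjusted edgeR p (vertical axis), with DEGs coloured by direction. The 587 genes higher in FS lie to the right and the 525 higher in PWT to the left, and *ABCB11* and *RIC3* stand highest on the PWT side.

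Among the protein-coding genes with the smallest p that were higher in FS, *ZBTB47*, a zinc finger protein, was at 215, 172, 197 and 99.8 CPM in S1-02, S1-11, S1-12 and S2-06, and in PWT its lowest, median and highest values were 14.4, 24.1 and 31.3 CPM. The log2 difference was 2.82 (SE 0.29, edgeR adjusted p = 0.000651). All FS were high and no PWT approached the lowest of them. *MAST2*, a microtubule-associated kinase, was at 50.3, 83.4, 48.4 and 89.8 CPM in FS and at 7.08 to 11.5 CPM in PWT, a log2 difference of 2.79 (SE 0.29, edgeR adjusted p = 0.000651). *PTK7*, a pseudokinase of planar cell polarity, was at 44.5, 205, 149 and 66.5 CPM in FS and at 1.74 to 11.6 CPM in PWT (log2 difference 4.09, SE 0.54, edgeR adjusted p = 0.00197). *PLXNA4*, a receptor for semaphorins, was highest in S1-02 at 272 CPM and lowest in S1-11 at 73.9 CPM among FS, and PWT reached 17.4 CPM (log2 difference 4.11, SE 0.52, edgeR adjusted p = 0.00161).

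Other leading FS genes had a like separation from PWT. *FKBP10*, a collagen chaperone of the endoplasmic reticulum, was at 136, 318, 224 and 113 CPM in FS and between 13.7 and 35.3 CPM in PWT, a log2 difference of 3.03 (SE 0.35, edgeR adjusted p = 0.00116). *GALNT5*, which starts O-linked glycosylation, and *CADM1*, an adhesion molecule, were higher in FS by 3.60 and 3.24 on the log2 scale. *SLC1A4*, a transporter of serine and other neutral amino acids, *MTCL1*, which crosslinks microtubules, and *DZIP1*, a protein of the cilium base, were higher in FS by 3.73, 3.70 and 2.73. In each of these 6 genes the lowest FS tumor exceeded the highest PWT tumor. *SALL1*, a transcription factor of limb and kidney development, was at 10.1, 26.3, 23.2 and 10.9 CPM in FS and at no more than 0.828 CPM in PWT. Because PWT held almost no counts of *SALL1*, its difference is given as a ratio of 70.4 (95% interval 19.0 to 589, counting error only).

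The smallest p among genes higher in PWT belonged to *ABCB11*, the bile salt export pump of liver, which was at 1.81, 0.559, 0 and 0.475 CPM in FS, and in PWT its lowest, median and highest values were 102, 128 and 201 CPM. It had the smallest p of all genes tested (log2 difference -7.08, SE 0.48, edgeR adjusted p = 2.04e-05). No FS exceeded 1.81 CPM, while every PWT, S2-08 among them, was at or above 102 CPM. *RIC3*, a chaperone of nicotinic acetylcholine receptors, was at 2.90, 0.559, 3.87 and 2.38 CPM in FS and between 72.2 and 163 CPM in PWT (log2 difference -5.66, SE 0.46, edgeR adjusted p = 7.79e-05). *ELAVL3*, an RNA-binding protein of neurons, was at 0.362 to 2.80 CPM in FS and at 25.4 to 69.5 CPM in PWT (log2 difference -5.09, SE 0.58, edgeR adjusted p = 0.00116).

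Further leading PWT genes were also lower in every FS than in any PWT. *CALCRL*, the receptor that with its partner proteins binds adrenomedullin and calcitonin gene-related peptide, was at 25.3, 24.6, 13.5 and 47.5 CPM in FS and at 128 to 363 CPM in PWT (log2 difference -3.19, SE 0.41, edgeR adjusted p = 0.00169). *ADM*, which encodes adrenomedullin, is not among the leading genes but was also higher in PWT. FS lay at 3.87 to 12.4 CPM and PWT at 12.7 to 46.6 CPM (log2 difference -1.77, SE 0.46, edgeR adjusted p = 0.0326, 0.0738 without S1-11 and 0.152 in the fit with the prefix). *IL33*, an alarm cytokine, was at 23.2, 34.7, 7.74 and 25.7 CPM in FS and at 120 to 361 CPM in PWT, a log2 difference of -3.39 (SE 0.45, edgeR adjusted p = 0.0021). *DEPTOR*, an inhibitor of the kinase mTOR, was at 42.3 to 132 CPM in FS and at 346 to 664 CPM in PWT (log2 difference -2.67, SE 0.37, edgeR adjusted p = 0.00236). *CLEC3B*, the secreted plasminogen-binding protein tetranectin, differed by -3.79, *CDC14B*, a phosphatase, by -2.74 and *RALGPS1*, an activator of Ral GTPases, by -2.30 on the log2 scale. *TEX15* and *SYCP2*, both known from meiosis, differed by -4.38 and -3.50. In all of these genes the highest FS tumor lay below the lowest PWT tumor.

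All 22 leading genes, which do not include *ADM*, passed with the prefix as a term and without S2-08. Without S1-11, 21 passed, and *SALL1* no longer had the counts to be tested. As they were chosen by this comparison, their sizes are given as a description. In a fit of all 16 tumors, which shares the FS and PWT tumors with the values above, the 11 leading PWT genes had a median log2 difference of -2.83 for FS minus PNST (range -6.89 to -1.62) and of 0.37 for PWT minus PNST (range -0.40 to 1.56). The 11 leading FS genes had medians of 2.38 for FS minus PNST (range 1.54 to 6.51) and -0.85 for PWT minus PNST (range -2.19 to 0.61).

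**Figure D2:**
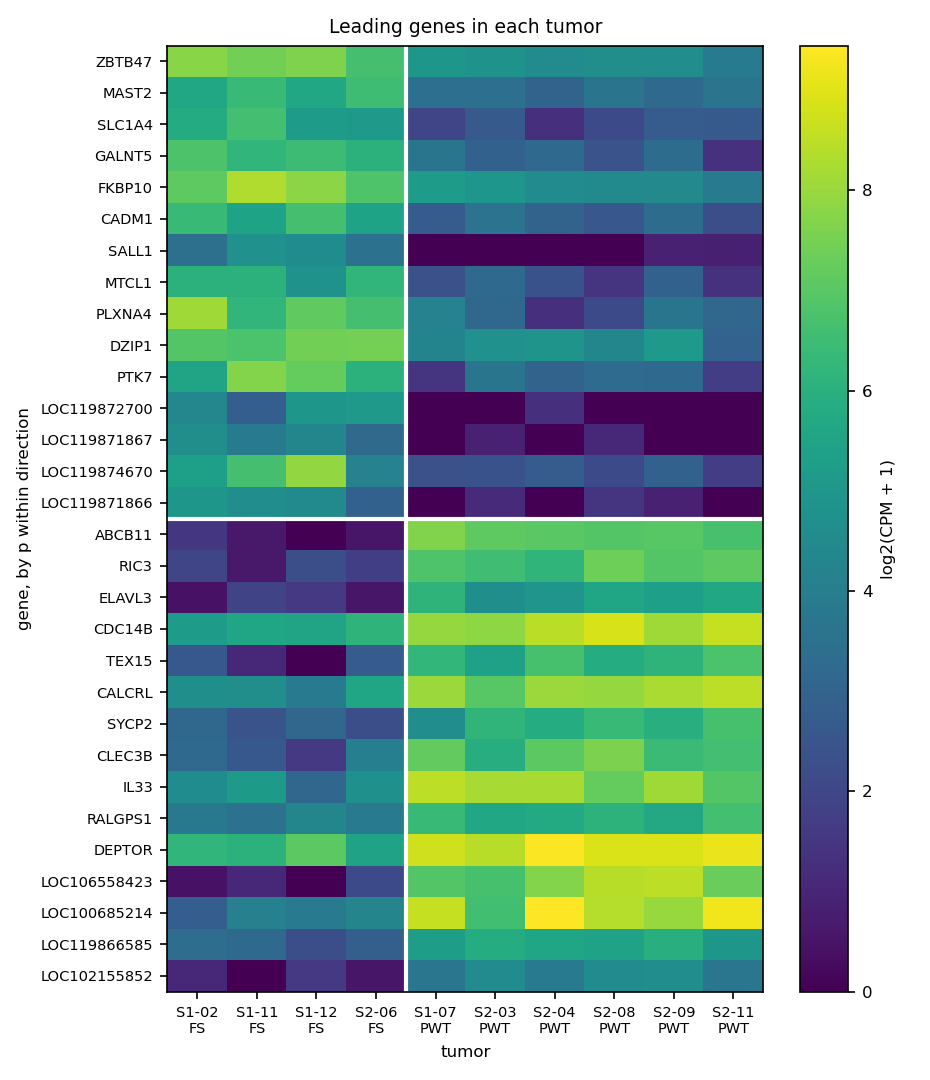
Heat map of the level of the 22 leading protein-coding genes and of 8 leading genes that carry a LOC number in each tumor, as log2(CPM + 1) by colour, with genes in rows ordered by p within a direction and tumors in columns by type. In the upper block FS are brighter than PWT and in the lower block darker, and *ABCB11* is at most 1.81 CPM in FS and at least 102 CPM in PWT.

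Among RNAs without a gene symbol, the long non-coding RNA *LOC106558423* was near 0 in FS, as *ABCB11* was. It lay at 0.362, 1.12, 0 and 3.33 CPM in FS and at 104 to 365 CPM in PWT, and the log2 difference was -7.20 (SE 0.71, edgeR adjusted p = 0.00063). The long non-coding RNA *LOC119872700* was at 19.9, 6.16, 30.9 and 33.3 CPM in FS. It was detected in 1 PWT, S2-04, by 1 count at 1.42 CPM (ratio of FS to PWT 195, 95% interval 34.4 to 7738, counting error only). Whether counting used strand is not given in the sources used here, so reads of overlapping genes on opposite strands could not be told apart.

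Of the 31 gene lists, the collagens had the highest share of DEGs. The counts of every list below stand against 4.43% of all genes higher in FS and 3.96% higher in PWT. In the refits they stand against the shares given above for the same fit. Of 22 collagens tested 10 (45.5%) were higher in FS and 0 in PWT, against 4.43% and 3.96% of all genes, and their median log2 difference was 1.63 against 0.03 over all genes. *COL1A1*, a chain of type I collagen, was at 8689, 42150, 11570 and 5658 CPM in FS, and its lowest, median and highest values in PWT were 1787, 2316 and 4309 CPM. It did not overlap between the types, was far highest in S1-11, and differed by 2.67 on the log2 scale (SE 0.59, edgeR adjusted p = 0.0183, 0.0461 without S1-11 and 0.248 in the fit with the prefix). *COL1A2* and *COL3A1*, which encode partner and companion chains, did not pass the test, with log2 differences of 1.51 (edgeR adjusted p = 0.0696) and 1.91 (edgeR adjusted p = 0.0864). *COL11A1*, a minor fibrillar collagen, was at 238 CPM in S1-11 and 602 CPM in S1-12 but at 10.1 CPM in S1-02 and 1.90 CPM in S2-06, within the range of PWT (0 to 6.65 CPM) in the last (log2 difference 6.39, SE 1.31, edgeR adjusted p = 0.0124, 0.563 in the fit with the prefix). *COL24A1* was at 8.32, 155, 112 and 17.1 CPM in FS and at most 6.63 CPM in PWT (log2 difference 4.63, SE 0.85, edgeR adjusted p = 0.00794, 0.132 in the fit with the prefix). Without S1-11, neither *COL11A1* nor *COL24A1* had the counts to be tested, and 4 collagens were higher in FS. Without S2-08, 6 were, and with the prefix as a term 0 were.

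Of 38 glycoproteins and proteoglycans of the matrix, 12 (31.6%, against 4.43% of all genes) were higher in FS and 2 (5.26%, against 3.96%) in PWT, with a median log2 difference of 1.28. Without S1-11 or without S2-08, 7 of them were higher in FS, with the prefix as a term 3 were, and 2 were higher in PWT in each of these fits. *MXRA5*, a secreted matrix protein, was at 918, 2253, 1546 and 770 CPM in FS and at 148 to 351 CPM in PWT (log2 difference 2.54, SE 0.39, edgeR adjusted p = 0.00368). The tenascins, large matrix glycoproteins that modulate adhesion, went both ways. *TNC* was at 354, 796, 106 and 647 CPM in FS and at 9.87 to 140 CPM in PWT, so that S1-12 lay inside the PWT range (log2 difference 3.16, SE 0.70, edgeR adjusted p = 0.0175). *TNN* was at 1253 CPM in S1-11 and 393 CPM in S1-12, at 9.05 and 18.1 CPM in the other FS, and at most 5.40 CPM in PWT (log2 difference 6.94, SE 1.15, edgeR adjusted p = 0.00574, 0.199 in the fit with the prefix). By contrast *TNXB* was at 364, 279, 224 and 156 CPM in FS and at 757 to 4040 CPM in PWT (log2 difference -3.03, SE 0.52, edgeR adjusted p = 0.006), and *TNR* was at 1.81 to 9.67 CPM in FS and at 9.98 to 240 CPM in PWT (log2 difference -4.45, SE 0.81, edgeR adjusted p = 0.0078). No FS reached the lowest PWT for either gene.

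Elastic fibre genes showed the weight of single tumors. *FBN2*, a fibrillin of developing tissue, was at 867, 898 and 317 CPM in S1-11, S1-12 and S2-06 but at 3.26 CPM in S1-02, inside the PWT range of 1.52 to 10.4 CPM (log2 difference 6.61, SE 1.03, edgeR adjusted p = 0.00415). *ELN*, which encodes elastin, was at 2294 CPM in S1-11 and at 113, 178 and 6.18 CPM in the other FS, against 6.83 to 72.9 CPM in PWT. The log2 difference of *ELN* was 4.06 (SE 1.08, edgeR adjusted p = 0.0361) and did not pass without S1-11 (edgeR adjusted p = 0.329), without S2-08 (0.0732) or with the prefix as a term (0.909). *BGN*, the proteoglycan biglycan, was at 170, 1700, 1292 and 101 CPM in FS and at 20.5 to 125 CPM in PWT (log2 difference 3.64, SE 0.72, edgeR adjusted p = 0.0104, 0.352 in the fit with the prefix).

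Most basement membrane genes and matrix proteases did not pass the test. Of 19 basement membrane genes 5 (26.3%) were higher in FS and 0 in PWT, with a median log2 difference of 0.50, which was 0.12 with 3 called without S1-11. In the fit with the prefix 1 was called. The 5 included *COL15A1*, at 65.5, 748, 745 and 599 CPM in FS and 55.6 to 104 CPM in PWT, and the laminin chain *LAMC3*, at 32.2, 81.1, 418 and 9.98 CPM in FS and at most 9.11 CPM in PWT. *LAMC3* differed by 4.15 on the log2 scale (SE 0.78, edgeR adjusted p = 0.00857) and did not pass in the fit with the prefix (2.41, edgeR adjusted p = 0.345). Of 27 matrix proteases and inhibitors 6 (22.2%) were higher in FS and 1 (3.70%) in PWT, with a median of 0.69. The 6 became 4 without S1-11 or S2-08 and 2 with the prefix. *ADAMTS3*, which processes procollagen, was at 25.0, 19.6, 54.2 and 24.2 CPM in FS and at most 4.99 CPM in PWT (log2 difference 3.89, SE 0.65, edgeR adjusted p = 0.00592). The exception was *ADAMTS5*, a protease of the proteoglycan aggrecan, at 107, 227, 327 and 643 CPM in FS and at 1662 to 3296 CPM in PWT (log2 difference -2.89, SE 0.52, edgeR adjusted p = 0.00755).

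**Figure D3:**
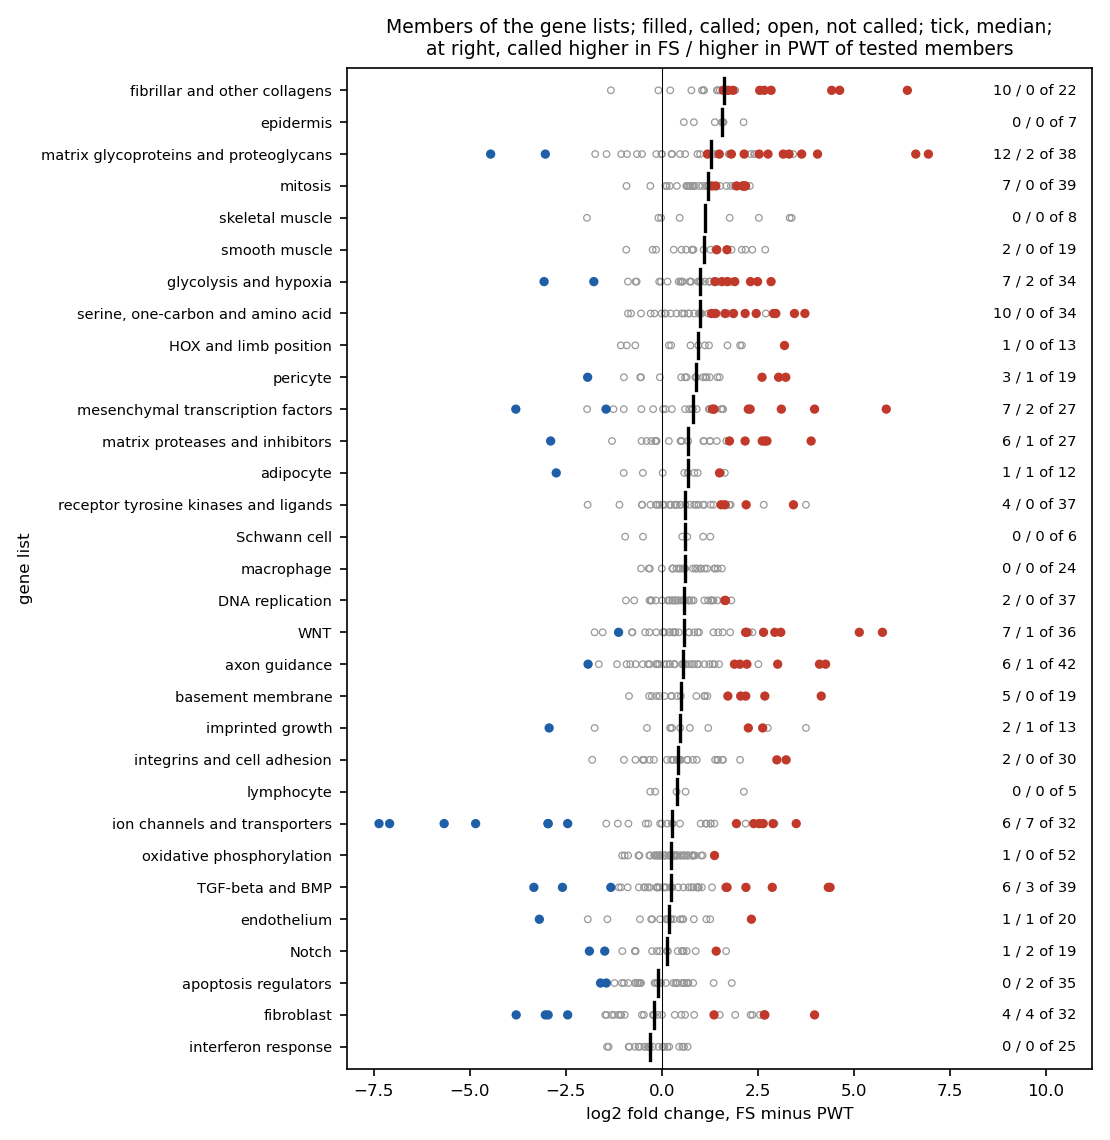
Log2 difference FS minus PWT (horizontal axis) of every tested member of each of the 31 gene lists (rows), with DEGs filled, red where higher in FS and blue where higher in PWT, other members open, and the median as a tick. The numbers at the right count members higher in FS and in PWT of those tested, from 10 and 0 of 22 collagens at the top to 0 and 0 of 25 interferon response genes at the bottom.

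The genes most used to recognize mural cells overlapped between the types. Of 19 tested pericyte genes 3 were higher in FS and 1 in PWT, with a median log2 difference of 0.90. DESeq2, without the filter on low counts, called 6 of 28 higher in FS and 1 in PWT, against 3.23% and 2.42% of the 34568 genes with a count. By its own default filters it gave some genes no adjusted p, and any such gene stands in these totals as not called. Among the 6 was *MCAM* (DESeq2 adjusted p = 0.0417, edgeR adjusted p = 0.0733). *RGS5*, a regulator of G protein signalling, was at 78.2, 108, 79.3 and 90.3 CPM in FS, and at 57.9, 106 and 253 CPM as the lowest, median and highest of PWT (log2 difference -0.54, SE 0.42, edgeR adjusted p = 0.442). *PDGFRB*, the receptor for platelet-derived growth factor B, *NOTCH3* and *CSPG4* differed by 1.08, 0.65 and 1.45 and did not pass the test (edgeR adjusted p = 0.172, 0.462 and 0.0939). None of them was absent from a tumor. *EBF1*, a transcription factor of pericytes and fat precursors, was at 38.4, 94.0, 30.9 and 144 CPM in FS and at 247 to 326 CPM in PWT (log2 difference -1.93, SE 0.41, edgeR adjusted p = 0.0145, 0.0588 in the fit with the prefix). *GUCY1A1*, a subunit of the nitric oxide receptor, was at 53.9, 16.2, 61.9 and 44.2 CPM in FS and at 3.80 to 14.1 CPM in PWT (log2 difference 2.61, SE 0.44, edgeR adjusted p = 0.00592). *EDNRA*, an endothelin receptor, was at 44.5, 239, 447 and 110 CPM in FS and at 6.60 to 44.7 CPM in PWT (log2 difference 3.23, SE 0.62, edgeR adjusted p = 0.00908, 0.0945 in the fit with the prefix). The fit with the prefix called 1 pericyte gene higher in FS and 0 in PWT. In bulk tumors, fewer cells of a type and less RNA per cell cannot be told apart.

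By edgeR, few genes of the contractile and other stromal lists passed the test. Of 19 smooth muscle genes 2 were higher in FS, with a median log2 difference of 1.09, which was 0.44 with 0 called without S1-11, and 0 were called without S2-08 or with the prefix. *ACTA2*, smooth muscle actin, was at 9.41, 218, 85.1 and 29.5 CPM in FS and at 1.65 to 41.4 CPM in PWT (log2 difference 2.69, SE 0.84, edgeR adjusted p = 0.0641). DESeq2, without the filter on low counts, called 6 of 24 smooth muscle genes higher in FS and 0 in PWT, *ACTA2* among them (DESeq2 adjusted p = 0.0178). Of 20 endothelial genes 1 (5%, against 4.43% and 3.96% of all genes) was higher in each type. These were the receptor *FLT4* in FS, which did not pass in the fit with the prefix (edgeR adjusted p = 0.113), and *CALCRL* in PWT. By edgeR, none of 24 macrophage, 5 lymphocyte, 6 Schwann cell, 7 epidermal or 8 skeletal muscle genes tested passed, and the median of the skeletal muscle genes moved from 1.12 to -1.01 without S1-11.

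Fibroblast genes were divided evenly, with 4 of 32 higher in each type and a median log2 difference of -0.21. Those higher in FS were *COL1A1*, *COL15A1* and the transcription factors *TWIST2* and *PRRX1*. *PRRX1*, a factor of limb mesenchyme, was at 472, 606, 1308 and 676 CPM in FS and at 174 to 379 CPM in PWT (log2 difference 1.36, SE 0.35, edgeR adjusted p = 0.0314, 0.0654 without S2-08 and 0.153 in the fit with the prefix). *TWIST2* did not pass in these fits either (edgeR adjusted p = 0.0577 and 0.289), and the list then had 2 and 1 genes higher in FS and 4 and 3 in PWT. Those higher in PWT were *CLEC3B*, *TNXB* and the lipid transporters *ABCA8* and *ABCA9*, of which *ABCA8* did not pass in the fit with the prefix (edgeR adjusted p = 0.0534). *ABCA9* was at 115, 110, 19.3 and 87.9 CPM in FS and at 393 to 981 CPM in PWT (log2 difference -2.96, SE 0.48, edgeR adjusted p = 0.00555). The related transporter *ABCA6* was at 221, 41.4, 160 and 123 CPM in FS and at 789 to 1409 CPM in PWT (log2 difference -2.96, SE 0.46, edgeR adjusted p = 0.00415). *DCN*, the proteoglycan decorin of resting fibroblasts, was at 2713 and 1827 CPM in S1-02 and S1-11, at 124 and 414 CPM in S1-12 and S2-06, and at 2230 to 5092 CPM in PWT, and did not pass (log2 difference -1.44, SE 0.68, edgeR adjusted p = 0.204).

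**Figure D4:**
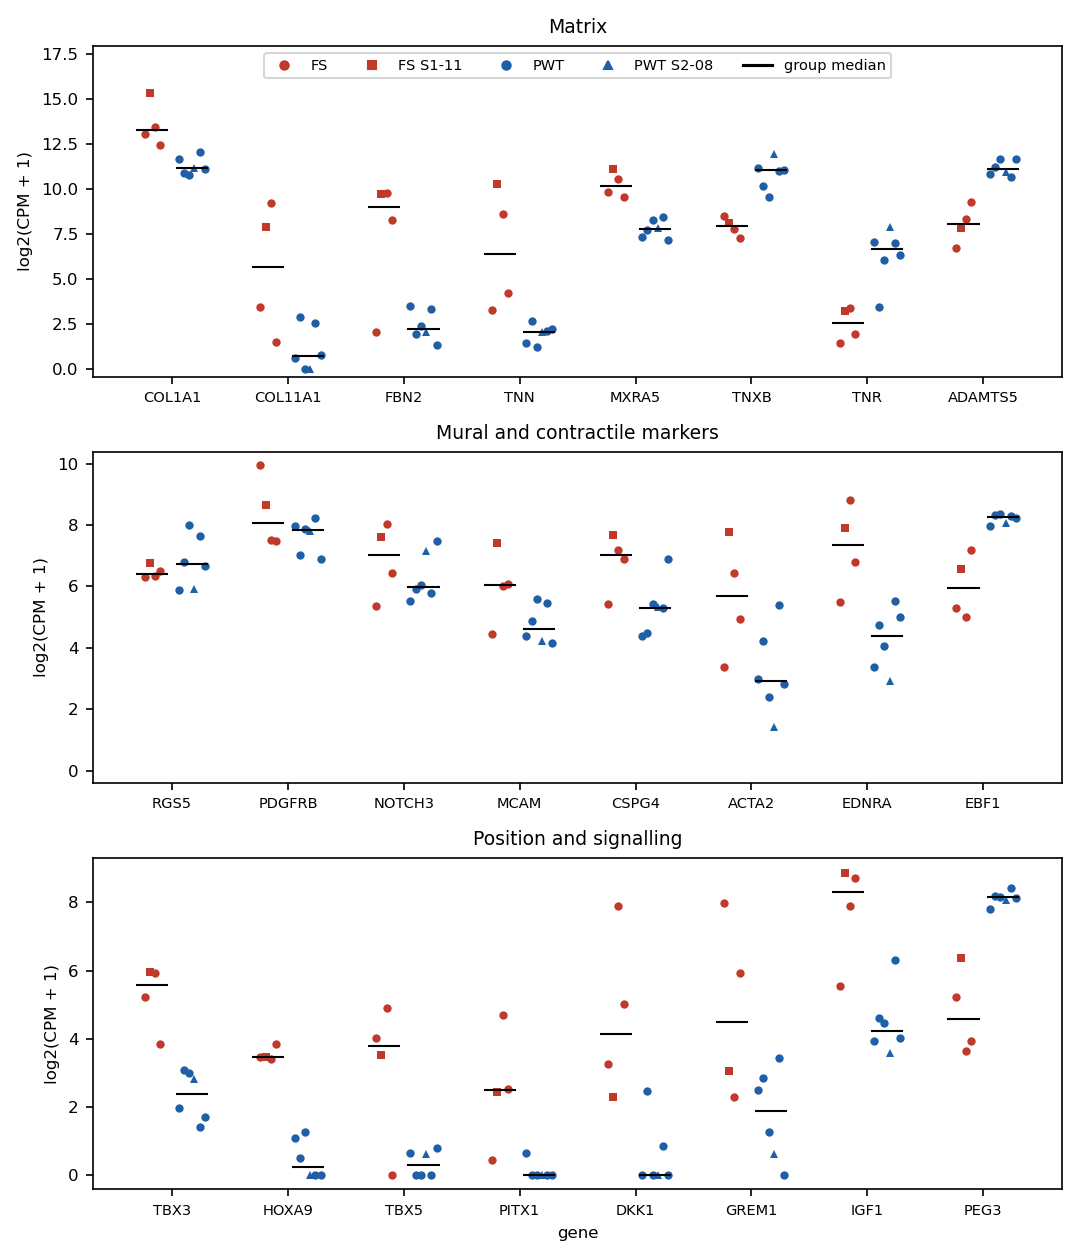
Levels of 24 matrix, mural and contractile, and position and signalling genes in each tumor as log2(CPM + 1), with FS in red, PWT in blue, S1-11 as a square, S2-08 as a triangle and the group median as a line. *RGS5* overlaps between the types, *TNXB* is at most 364 CPM in the 4 FS and at least 757 CPM in the 6 PWT, and *COL1A1* is highest in S1-11.

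Genes of serine, one-carbon and amino acid metabolism were higher in FS, with 10 of 34 tested (29.4%, against 4.43% of all genes) and 0 in PWT. Their median log2 difference was 0.99. *ALDH1L2*, a mitochondrial enzyme of folate metabolism, was at 162, 117, 30.9 and 76.0 CPM in FS and at 3.85 to 13.7 CPM in PWT (log2 difference 3.45, SE 0.47, edgeR adjusted p = 0.00213). *MTHFD2*, another enzyme of mitochondrial folate metabolism, was at 14.8, 33.0, 25.1 and 30.9 CPM in FS and at 2.83 to 8.28 CPM in PWT (log2 difference 2.17, SE 0.37, edgeR adjusted p = 0.00622). *PSAT1*, of serine synthesis, was at 54.6, 72.7, 38.7 and 84.6 CPM in FS and at 9.26 to 22.6 CPM in PWT (log2 difference 1.87, SE 0.31, edgeR adjusted p = 0.00576). *ASNS*, asparagine synthetase, differed by 2.91 (SE 0.59, edgeR adjusted p = 0.0118, 0.0583 in the fit with the prefix). No FS overlapped a PWT in any of these. *PHGDH*, the first enzyme of serine synthesis, had 5, 11, 0 and 8 counts in S1-02, S1-11, S1-12 and S2-06 and 0 in every PWT. S1-12 thus did not differ from PWT. Over the group, the 24 counts in FS were at least 10.2-fold higher against a floor of 3 counts. With the prefix as a term 6 genes of the list were higher in FS, and without S1-11 5 were.

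Of 34 glycolysis and hypoxia genes 7 (20.6%, against 4.43% of all genes) were higher in FS and 2 (5.88%, against 3.96%) in PWT, with a median of 1.00. The number higher in FS was 2 without S1-11 and 3 without S2-08 or with the prefix as a term. *SLC2A1*, the glucose transporter GLUT1, was at 31.1, 42.5, 19.3 and 33.8 CPM in FS and at 2.20 to 7.08 CPM in PWT (log2 difference 2.85, SE 0.40, edgeR adjusted p = 0.00247). *HK1*, a hexokinase, was at 125, 117, 69.6 and 123 CPM in FS and at 6.83 to 35.7 CPM in PWT (log2 difference 2.31, SE 0.40, edgeR adjusted p = 0.00628). *PDK4*, which holds pyruvate back from oxidation, was at 39.5, 56.5, 19.3 and 5.70 CPM in FS and at 108 to 581 CPM in PWT (log2 difference -3.06, SE 0.62, edgeR adjusted p = 0.012). Of 52 genes of oxidative phosphorylation 1 was higher in FS, with a median of 0.24, and 0 were without S1-11 or with the prefix.

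Of 39 genes of TGF-beta and BMP signalling 6 (15.4%) were higher in FS and 3 (7.69%) in PWT, with a median of 0.23. These counts were 3 and 2 without S1-11, 4 and 2 without S2-08, and 1 and 1 with the prefix as a term. *SMAD9*, a BMP effector, was at 21.0, 56.5, 98.7 and 36.6 CPM in FS and at most 5.80 CPM in PWT (log2 difference 4.34, SE 0.66, edgeR adjusted p = 0.00381). Secreted BMP antagonists differed by member. *GREM1* was higher in FS through S1-02 at 253 CPM and S2-06 at 60.4 CPM, with S1-11 and S1-12 inside the PWT range (log2 difference 4.38, SE 1.03, edgeR adjusted p = 0.0222, 0.11 in the fit with the prefix). *BMPER* was at 19.5, 18.5, 1.93 and 28.0 CPM in FS and at 120 to 277 CPM in PWT (log2 difference -3.33, SE 0.48, edgeR adjusted p = 0.00312), and *CHRDL1* was at 44.9, 66.6, 13.5 and 123 CPM in FS and at 186 to 524 CPM in PWT (log2 difference -2.58, SE 0.53, edgeR adjusted p = 0.0127, 0.0577 in the fit with the prefix). Neither overlapped between the types.

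Of 36 genes of the WNT pathway 7 (19.4%) were higher in FS and 1 (2.78%) in PWT, with a median of 0.57. Without S1-11, 5 and 1 passed, without S2-08, 4 and 0, and with the prefix as a term 0 in both directions. The WNT feedback genes *DKK1*, *NKD1* and *AXIN2* were all far highest in S1-12, at 238, 505 and 785 CPM, and lay at 3.92 to 31.4, 3.98 to 92.9 and 25.2 to 167 CPM in the other FS. In PWT they reached at most 4.57, 8.68 and 70.4 CPM. *AXIN2* also did not pass without S1-11 (edgeR adjusted p = 0.0641) or without S2-08 (edgeR adjusted p = 0.081). Of 37 receptor tyrosine kinase genes and ligands 4 were higher in FS, 2 without S1-11 or with the prefix, among them *IGF1*, at 45.6, 463, 236 and 419 CPM in FS and 11.0 to 77.9 CPM in PWT (log2 difference 3.43, SE 0.64, edgeR adjusted p = 0.00857). Of 42 axon guidance genes 6 (14.3%) were higher in FS and 1 (2.38%) in PWT. These counts became 4 and 0 without S1-11, 5 and 0 without S2-08, and 1 and 0 with the prefix. *ROBO1*, a receptor for SLIT proteins, was at 310, 1721 and 1250 CPM in the FS of prefix S1. In S2-06 it was at 41.8 CPM, inside the PWT range of 25.4 to 65.1 CPM, which also held the PWT S1-07 (log2 difference 4.27, SE 0.73, edgeR adjusted p = 0.00611, 0.431 in the fit with the prefix). Of 19 Notch pathway genes 1 (5.26%, against 4.43% of all genes) was higher in FS and 2 (10.5%, against 3.96%) in PWT, and 0 passed with the prefix.

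Of 27 mesenchymal transcription factors 7 were higher in FS and 2 in PWT, with a median of 0.81. The counts were 2 and 2 both without S1-11 and without S2-08, and 1 and 1 with the prefix as a term. *MEOX2*, a homeobox gene of somites and vessels, was at 9.41, 16.2, 1.93 and 3.80 CPM in FS and at 60.2 to 231 CPM in PWT (log2 difference -3.80, SE 0.57, edgeR adjusted p = 0.0035). Of 48 HOX and limb position genes 13 had the counts to be tested and 1 passed, *TBX3*, at 36.6, 61.0, 60.0 and 13.3 CPM in FS and 1.66 to 7.48 CPM in PWT (log2 difference 3.18, SE 0.50, edgeR adjusted p = 0.00483, 0.09 in the fit with the prefix). DESeq2, without that filter, called 12 of the 48 higher in FS and 0 in PWT, against 3.23% and 2.42% of the 34568 genes with a count (5.64% in either direction). Genes to which DESeq2 gave no adjusted p stand in these totals as not called. *HOXA9* was at 9.67 to 13.3 CPM in every FS and at 0 to 1.42 CPM in PWT. *TBX5*, a factor of the forelimb, was at 15.2 (shoulder), 10.6 (stifle) and 29.0 CPM (metacarpus) in the FS of prefix S1. It was at 0 in S2-06 from the hip. PWT reached 0.759 CPM (ratio of FS to PWT 32.4, 95% interval 10.7 to 161, counting error only). *PITX1*, a factor of the hindlimb, was highest in S1-12 from the metacarpus, at 25.1 CPM. It was at 4.48 CPM in S1-11 (stifle), 4.75 CPM in S2-06 (hip) and 0.362 CPM in S1-02 (shoulder). Among PWT of the forelimb, *TBX5* was at 0 in S2-04 and at 0.759 CPM in S2-11. Whether tumor site had a part in these differences was not tested.

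The summed level of mitosis genes was highest in S2-06. Of 39 mitosis genes 7 (17.9%, against 4.43% of all genes) were higher in FS and 0 in PWT, with a median of 1.21. Their summed level was 3480 CPM in S2-06, 1935 CPM in S1-11, 985 CPM in S1-12 and 845 CPM in S1-02, and lay between 747 and 1322 CPM in PWT. *CDK1*, the kinase that drives entry into mitosis, was at 25.7, 39.2, 29.0 and 181 CPM in FS and at 5.79 to 26.6 CPM in PWT (log2 difference 2.13, SE 0.56, edgeR adjusted p = 0.0355, 0.0754 without S2-08). *MKI67* did not pass (log2 difference 0.97, SE 0.42, edgeR adjusted p = 0.167). The count of mitosis genes higher in FS was 1 without S1-11, 2 without S2-08 and 15 with the prefix as a term. S2-06 is the FS of grade 3, and S2-11 the PWT of that grade. The other FS were of grade 1/2 or 2, and the other PWT of grade 1 except S1-07, of grade 2. Whether grade had a part in these differences was not tested. Of 37 DNA replication genes 2 (5.41%, near the 4.43% of all genes) were higher in FS, and 0 were without S1-11 or without S2-08.

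Of 32 ion channel and transporter genes tested 6 (18.75%, against 4.43% of all genes) were higher in FS and 7 (21.9%, against 3.96%) in PWT. Like the other lists, this one was drawn up with results of these data known. Without S1-11, 2 were higher in FS and 7 in PWT, and without S2-08, 4 and 7. Besides *ABCB11*, *RIC3* and the *ABCA* transporters, PWT had more of *KCNT2*, a sodium-activated potassium channel, with a log2 difference of -4.84 (SE 0.78, edgeR adjusted p = 0.00552), which did not pass in the fit with the prefix. FS had more of the calcium channel subunit *CACNA2D1*, at 164, 135, 67.7 and 141 CPM against 3.04 to 22.9 CPM in PWT (log2 difference 3.50, SE 0.49, edgeR adjusted p = 0.00256). In the fit with the prefix 2 of these genes were higher in FS and 5 in PWT.

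Small nucleolar RNAs (snoRNAs), which guide the chemical modification of ribosomal RNA and mostly lie within introns of other genes, were higher in PWT. Of 243 snoRNAs tested 79 (32.5%, against 3.96% of all genes) were higher in PWT and 0 in FS. Their median log2 difference was -1.54, and 236 of the snoRNAs had a negative difference. *LOC119864306*, the most abundant of them, was at 1350, 878, 1981 and 2122 CPM in FS and at 4820 to 12521 CPM in PWT (log2 difference -2.29, edgeR adjusted p = 0.0139). No FS came near the lowest PWT. The number called was 65 (27.0%, against 2.61% of all genes) without S2-08 and 36 (14.8%, against 1.94%) without S1-11. With the prefix as a term it was 17 (7.00%, against 1.09%). Among the S2 tumors alone 0 were called with a median of -1.45, and among the S1 tumors alone the median was -1.48.

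The share of gene counts that fell on snoRNAs was 3.38%, 1.69%, 8.79% and 6.36% in S1-02, S1-11, S1-12 and S2-06, and 14.1%, 17.4%, 16.4%, 9.61%, 12.6% and 20.8% in S1-07, S2-03, S2-04, S2-08, S2-09 and S2-11. The mean was 5.05% ± 3.15 (SD, n = 4) in FS and 15.1% ± 3.91 (SD, n = 6) in PWT, and the groups did not overlap. A two-sided exact permutation test gave p = 0.00952, the smallest this design allows, and 0.0952 after Benjamini-Hochberg adjustment over the 10 library measures tested. The PNST lay between 4.39% and 9.21%. The share of ambiguous reads, which fall on more than 1 gene, overlapped between the types, at 0.713% ± 0.290 (SD, n = 4) in FS and 1.32% ± 0.216 (SD, n = 6) in PWT (two-sided exact permutation p = 0.0190, adjusted 0.0952). Whether RNA quality or library preparation had a part in the snoRNA difference was not tested.

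The genes that surround the snoRNAs had differences centred near 0. Of the 243 snoRNAs 202 lay within the span of a tested gene, and these 110 genes had a median log2 difference of -0.03, with 1 called in each direction. *RPL13A*, a ribosomal protein gene, differed by -0.46 (SE 0.46, edgeR adjusted p = 0.566), while the snoRNAs *LOC119869900*, *LOC119869901* and *LOC119869908* within it differed by -2.49, -2.05 and -2.17 and passed, and *LOC119869903*, also within it, differed by -0.83 and did not pass (edgeR adjusted p = 0.390). *LOC119866496*, within *KANSL2*, was at 35.5, 21.8, 44.5 and 28.0 CPM in FS and at 96.8 to 194 CPM in PWT (log2 difference -2.05, edgeR adjusted p = 0.00368), its neighbour *LOC119866495* differed by -0.92 and did not pass, and *KANSL2* differed by 0.14. The 45 tested genes around the called snoRNAs had a median of -0.24 and 31 of them were below 0. Reads with several alignments were listed apart and not counted on a gene. Near-identical snoRNA copies can therefore lose reads, so single members are uncertain.

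**Figure D5:**
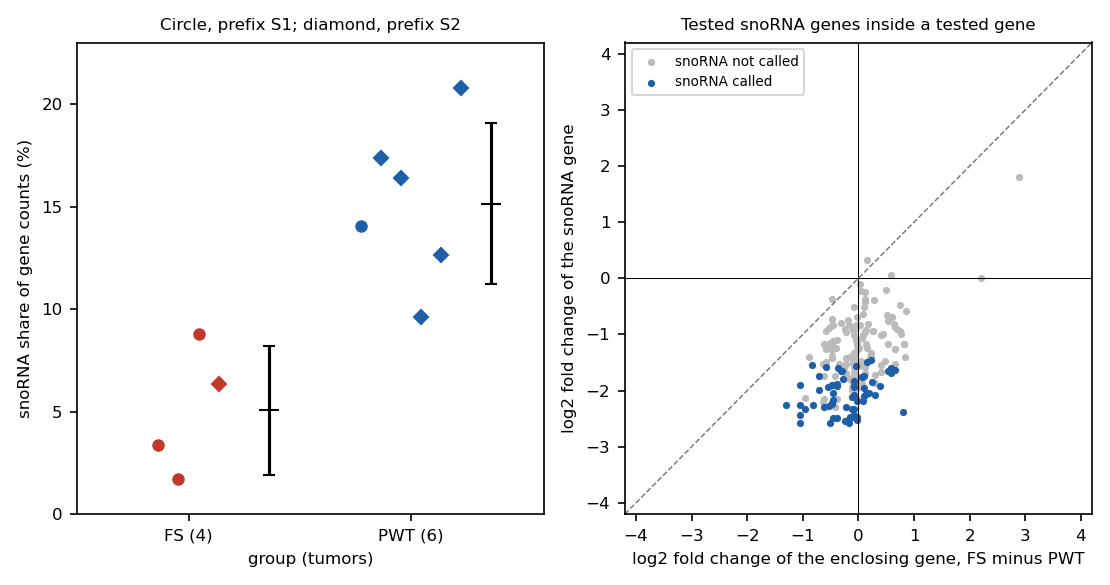
Left, share of gene counts on snoRNAs in each FS and PWT tumor (in %), with circles for the prefix S1, diamonds for S2, and the group mean and SD as bars. Right, log2 difference FS minus PWT of each of the 202 snoRNAs that lie within a tested gene (vertical axis) against that of this gene (horizontal axis), where nearly all points lie below the dashed line of equal differences.

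Other classes of RNA differed less. Of 1031 long non-coding RNAs tested 94 (9.12%, against 3.96% of all genes) were higher in PWT and 12 in FS, with a median of -0.39. Without S1-11, without S2-08 and with the prefix as a term, 44 (4.61%), 61 (6.55%) and 21 (2.04%) long non-coding RNAs were higher in PWT and 3, 7 and 3 in FS. Of 54 small nuclear RNA genes 1 was higher in FS and 4 (7.41%, against 3.96% of all genes) in PWT. These counts were 1 and 1 without S1-11, 0 and 1 without S2-08, and 0 and 0 with the prefix. Among protein-coding genes alone 4.99% were higher in FS and 2.81% in PWT.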

How the data were processed

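RNA of archived tumors was depleted of ribosomal RNA and sequenced on an Ion Proton, and the authors aligned reads with STAR to the dog genome ROS_Cfam_1.0 and deposited HTSeq counts per gene and run (versions not given in the sources used here). Counts of the runs of a tumor were summed, and rows that name no gene were left out, of which reads outside genes alone were 41.8% to 66.7% of all reads listed. Groups followed the molecular identity label. A gene was kept if 4 or more of the 10 tumors had 10 counts or more, and was tested with edgeR 4.0.16 (TMM scaling, quasi-likelihood, 2 groups, no covariate, R 4.3.3), with DESeq2 1.42.0 and limma 3.58.1 as alternatives. For a DEG the adjusted p had to be under 0.05 and the log2 fold change beyond 1 in either direction. CPM values are counts scaled to the TMM-adjusted library size of the tested genes. The 22 leading genes are from the 12 protein-coding genes with a symbol and the smallest p in each direction, of which 1 in each direction is not reported here. From each list up to 4 DEGs per direction and the defining members were eligible to be named, and *KCNT2*, the single snoRNAs and the genes around them were chosen after their values were seen. The members and the 31 lists were chosen with earlier results of these data known. Gene classes and neighbours came from the RefSeq table of UU_Cfam_GSD_1.0, in which 39589 of 41818 genes matched, and its coordinates served only to find enclosing genes, as the counts used another build. Intervals and floors (3 counts) cover counting error only. On simulated counts for 13255 genes in this design, 20%, 38.75% and 95% of genes changed by 1.5, 2 and 3 on the log2 scale were recovered, and 6.593% of calls were false. Depths of 507728 to 2781899 gene counts limit low genes.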

Additional observations from a re-analysis of the deposited data

Results flagged for a closer look

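In 6 of 82 sets of values examined, 1 tumor lay apart from the others of its type by more than Dixon's limit. Chance alone gives about 1 in 20 such sets where values are normally distributed, which CPM values near 0 are not. S1-11 held 110000 CPM of summed fibroblast genes against 21410 to 32040 CPM in the other FS. Of this, *COL1A1*, *COL3A1* and *COL1A2* held 42150, 37140 and 18200 CPM. Among the other defining genes of that list, *LUM* was highest of the FS in S1-11, while *PDGFRA*, *DPT* and *DCN* were highest in S1-02. Summed skeletal muscle genes were at 12610 CPM in S1-11 against 73.5 to 214.6 CPM in the other FS. S2-03 held 1865 CPM of summed epidermal genes against 15.57 to 42.52 CPM in the other PWT, and 325.5 CPM of summed lymphocyte genes against 83.58 to 150 CPM. *ABCB11* was at 200.9 CPM in S1-07 against 101.7 to 135.5 CPM in the other PWT. *LOC119872700* was at 1.415 CPM, which is 1 count, in the PWT S2-04 and at 0 in the other PWT.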

How the results depend on the processing

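Against 1112 DEGs, DESeq2 called 1951, a fit of all 16 tumors 1726, counts thinned to the lowest total 738, the prefix as a term 297 and an adjusted p under 0.01 255. S2 tumors alone gave 87, S1 tumors alone 0 and the histological groups 0. Without S2-08 there were 663, and leaving out each tumor in turn gave 522 to 1107, the lowest without S1-11, with 620 without S2-11 and 696 without S2-04. Alternatives added after the data were seen gave 272 without S1-11 and S2-08 and 167 with the prefix as a term and S1-11 left out. Without the filter on low counts 1599 genes were called, of which 1028 (64.3%) were higher in FS against 52.8% in the reported fit, and limma-voom called 1020 with 44.5% higher in FS. *ELN* was reversed within the S2 tumors alone (log2 difference -2.59) and with the prefix as a term and S1-11 left out (-0.35), and *ROBO1* (-0.0059) and *AXIN2* (-0.35) were reversed within the S2 tumors. Over the 126 named DEGs, 2753 refits kept direction and threshold, 714 kept the direction only and 4 were reversed. The cause of these changes was not tested. Leaving out single tumors moved the difference FS minus PWT in gene counts over -56610 to 701400, in genes with a count over -614.2 to 1842 and in the transfer RNA share over -0.0589 to 0.2469 percentage points. No paired analysis was possible because each tumor came from a different dog and replicate numbers were given in accession order. Depth limits low genes. The simulated recovery of 20% at a log2 difference of 1.5 was taken over all genes tested and was not split by depth or level.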

Other observations

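Of 13 imprinted growth genes tested 2 were higher in FS and 1 in PWT. *PEG3*, a zinc finger gene expressed from the paternal copy, was higher in PWT, at 36.6, 81.1, 11.6 and 14.3 CPM in FS and 222 to 339 CPM in PWT (log2 difference -2.93, SE 0.50, edgeR adjusted p = 0.006). *GNAS*, which encodes a stimulatory G protein subunit, was higher in FS, at 384, 393, 458 and 300 CPM against 19.7 to 116 CPM in PWT (log2 difference 2.63, SE 0.47, edgeR adjusted p = 0.00767, 0.056 in the fit with the prefix), and *PLAGL1* was higher in FS by 2.25 but did not pass without S1-11 (0.0613) or with the prefix (0.0701). *IGF2*, a fetal growth factor, was at 1183 CPM in S1-11 and at 8.08 to 40.9 CPM in the other FS, against 3.30 to 72.3 CPM in PWT, and did not pass (edgeR adjusted p = 0.0694, 0.945 without S1-11). The list had 1 gene higher in FS and 2 in PWT without S1-11, and 0 and 1 with the prefix.

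Of 35 apoptosis regulators 0 were higher in FS and 2 (5.71%, against 3.96% of all genes) in PWT, of which 1 passed without S1-11 and 0 with the prefix. *PAWR*, a promoter of apoptosis, was at 98.8, 28.0, 71.6 and 61.3 CPM in FS and 121 to 251 CPM in PWT (log2 difference -1.44, SE 0.38, edgeR adjusted p = 0.0346), and did not pass without S1-11 (0.094), without S2-08 (0.0625) or with the prefix (0.199). *UBXN2A* was at 18.8, 10.6, 13.5 and 16.6 CPM in FS and 32.3 to 63.0 CPM in PWT (log2 difference -1.59, SE 0.31, edgeR adjusted p = 0.00908, 0.0582 with the prefix). Of 12 adipocyte genes 1 (8.33%, against 4.43% and 3.96% of all genes) was higher in each type. These were *CEBPA* in FS by 1.5 on the log2 scale and *LPL*, lipoprotein lipase, in PWT (log2 difference -2.75). Neither passed without S1-11 or with the prefix, and *LPL* did not pass without S2-08. Of 30 integrin and adhesion genes 2 (6.67%, against 4.43% of all genes) were higher in FS, *CADM1* and the collagen receptor subunit *ITGA11*. The latter differed by 3.00 on the log2 scale and did not pass with the prefix (edgeR adjusted p = 0.273). By edgeR none of 25 interferon response genes passed, with a median of -0.31.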
